A study of Mus musculus with 6 samples.

Results

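The RUNX, CBF and ETO family was followed here as 7 genes, chosen by symbol, of the 16440 genes measured: the DNA-binding subunits Runx1, Runx2 and Runx3, their partner Cbfb, and the corepressors Runx1t1, Cbfa2t2 and Cbfa2t3. In the APL progenitors Cbfb rose 1.72-fold, Runx3 fell to a level 4.55-fold lower and Cbfa2t3 to one 2.76-fold lower than in normal myeloid progenitors (MPs). Genes of chromosome 8, where Cbfb lies, had higher values in APL as a whole, and relative to their median Cbfb was 1.24-fold higher. Runx1 and Runx2 were 1.43-fold and 1.48-fold higher, short of the fold change of 1.5 required for a call. Cbfa2t2 did not differ beyond the spread between libraries, and Runx1t1 was at the detection floor in both groups.

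RNA-seq covered 3 libraries of normal MPs and 3 of c-Kit+ APL cells, all from FVB N/J mice. The MPs were bone marrow cells sorted as Lin-Sca-1-c-Kit+, with no transgene. According to the paper this sort holds several kinds of progenitor, those of megakaryocytes and red cells among them. The APL cells came from leukemia of hMRP8-PML/RARα mice, in which the promoter of human MRP8, a gene of myeloid cells, drives the fusion oncoprotein of acute promyelocytic leukemia. They had been marked with GFP through the retroviral vector MigR1, expanded by transplantation into mice of the same strain and sorted for c-Kit. The labels give no drug treatment for either group and no age. The series calls the libraries of a group biological replicates but does not tie them to separate mice, so n counts libraries and the p-values cover the spread between these libraries. The transgene, GFP, the vector and transplantation all go with the APL group and cannot be told apart.

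Depth was 22976905 to 26932327 fragments before scaling in MP and 20608715 to 28382785 in APL. Within groups APL replicate 2 stood apart from the others, with a chi-square per degree of freedom of 107 and 97.2 against 11.2 for the remaining pair. MP replicate 3 stood apart less, with 40.5 and 40.9 against 9.38. No pair agreed within sampling noise. The number of members called lower was 2 without either of them, and the number called higher was 2 without APL replicate 2 and 1 without MP replicate 3.

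RUNX proteins bind DNA through their Runt domain, and CBFβ, which does not touch DNA itself, strengthens that binding. RUNX1 is needed for blood stem cells to form in the embryo and for megakaryocyte and lymphoid development, RUNX2 for bone formation, and RUNX3 for T-cell and neuronal development. The ETO proteins do not bind DNA on their own and recruit NCoR, SIN3 and histone deacetylases, and ETO2, the product of Cbfa2t3, works with the LDB1, TAL1 and GATA complex of erythroid and megakaryocytic cells. In human leukemia RUNX1 and RUNX1T1, or RUNX1 and CBFA2T3, are joined by translocation and CBFB is joined to MYH11.

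Some of the members' promoters hold the letters that RUNX proteins read, and those of the Runx genes share a stretch that is shown because few other promoters hold it. RefSeq windows of 300 bases, 250 before and 50 after a transcription start on GRCm38.p6, were found for 6 members, 9 windows in all, with none for Runx1t1. The motif letters TGTGGT and TGCGGT were searched on both strands, where they also read ACCACA and ACCGCA. A match was present in 4 of the 9 windows, and 22.4% of all 32851 windows held at least 1. The Runx1 distal window held 2 matches, the Runx2 window 4, the Runx3 distal window 2 and the Cbfa2t3 distal window 1, and at least 2 were present in 2.86% of all windows. The longest run common to the Runx1 distal, Runx2 and Runx3 distal windows had 18 bases and held a pair of matches. As it was taken from these windows, its share among all windows is a description and was not tested. The run was found in 4 of the 32851 windows (0.0122%), and the remaining window, that of the non-coding gene Gm16225, overlaps the Runx3 window. In the sites of 30 bases below, read on the strand of the gene, capitals mark the motif letters.
Runx1 distal start, chr16:92826025-92826054, minus strand: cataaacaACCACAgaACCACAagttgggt
Runx2, chr17:44814583-44814612, minus strand: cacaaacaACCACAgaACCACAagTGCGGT
Runx3 distal start, chr4:135120503-135120532, plus strand: gtccctcaACCACAgaACCACAaggccagg

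The shared run lay after the start in Runx1, at bases 27 to 44, and in Runx2, at bases 22 to 39. In Runx3 it lay before the start, between bases -136 and -119. The Runx2 site holds a further match directly after the run. The 250 bases before the start are given for the members that were called, Runx3 and Cbfa2t3, which fell, and Cbfb, which rose.
Runx3 distal, chr4:135120395-135120644, plus strand: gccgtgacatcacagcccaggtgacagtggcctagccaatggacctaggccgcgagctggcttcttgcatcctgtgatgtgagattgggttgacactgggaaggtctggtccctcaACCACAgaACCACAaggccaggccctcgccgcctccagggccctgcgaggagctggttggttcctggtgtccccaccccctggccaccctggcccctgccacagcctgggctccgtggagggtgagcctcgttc
Cbfa2t3 distal, chr8:122699110-122699359, minus strand: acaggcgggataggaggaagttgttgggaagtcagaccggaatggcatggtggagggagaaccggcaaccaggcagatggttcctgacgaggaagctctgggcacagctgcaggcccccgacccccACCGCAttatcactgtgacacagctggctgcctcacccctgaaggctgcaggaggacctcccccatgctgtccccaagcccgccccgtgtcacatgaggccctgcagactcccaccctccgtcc
Cbfb, chr8:105170424-105170673, plus strand: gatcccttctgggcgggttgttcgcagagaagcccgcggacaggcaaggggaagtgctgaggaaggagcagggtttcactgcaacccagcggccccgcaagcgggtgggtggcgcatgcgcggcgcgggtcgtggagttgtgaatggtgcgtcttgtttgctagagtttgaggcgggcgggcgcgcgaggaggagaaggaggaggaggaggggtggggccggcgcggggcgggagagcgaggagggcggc

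The windows of Cbfb and Cbfa2t2 and the proximal windows of Runx1, Runx3 and Cbfa2t3 held no match. A match is a description of the letters, and no binding was measured in these samples. The share of G and C was 45% in the Runx1 distal window and 45.3% in the Runx2 window. It was 63.7% in the Runx3 distal window, 63.7% in the Cbfa2t3 distal window and 69.7% in the Cbfb window, with a median of 52.7% over all windows. The motif-bearing windows thus spanned both sides of that median.

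Levels are given as FPKM, which is per length and allows genes to be compared, and differences were tested on scaled fragments, the deposited fragment values. Every fold change below is on the log2(scaled fragments + 1) scale, APL against MP, with the standard error (SE) of the limma fit. A gene was called at a Benjamini-Hochberg adjusted P under 0.05 over 14595 genes tested and a fold change over 1.5. By this rule 46.1% of all genes tested were called, 21.7% higher and 24.4% lower in APL. Of the members, 6 were tested and 3 called, 1 higher and 2 lower, so the share of the family that was called was close to that of all genes. The adjusted P alone was passed by 5 of the 6, against 67.0% of all genes, and for 5 of the 6 no APL library fell within the range of the MP libraries, against 70.9%. The median log2 difference was 0.23 over the members tested and -0.10 over all genes tested, and the median size, sign left aside, was 0.68 and 0.59. All 6 had at least 100 scaled fragments in every library, so none was tested only through the group in which it was high. An exact permutation test of 3 libraries against 3 cannot give a p under 0.1, and it gave 0.1 for each member but Cbfa2t2.

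**Figure D1:**
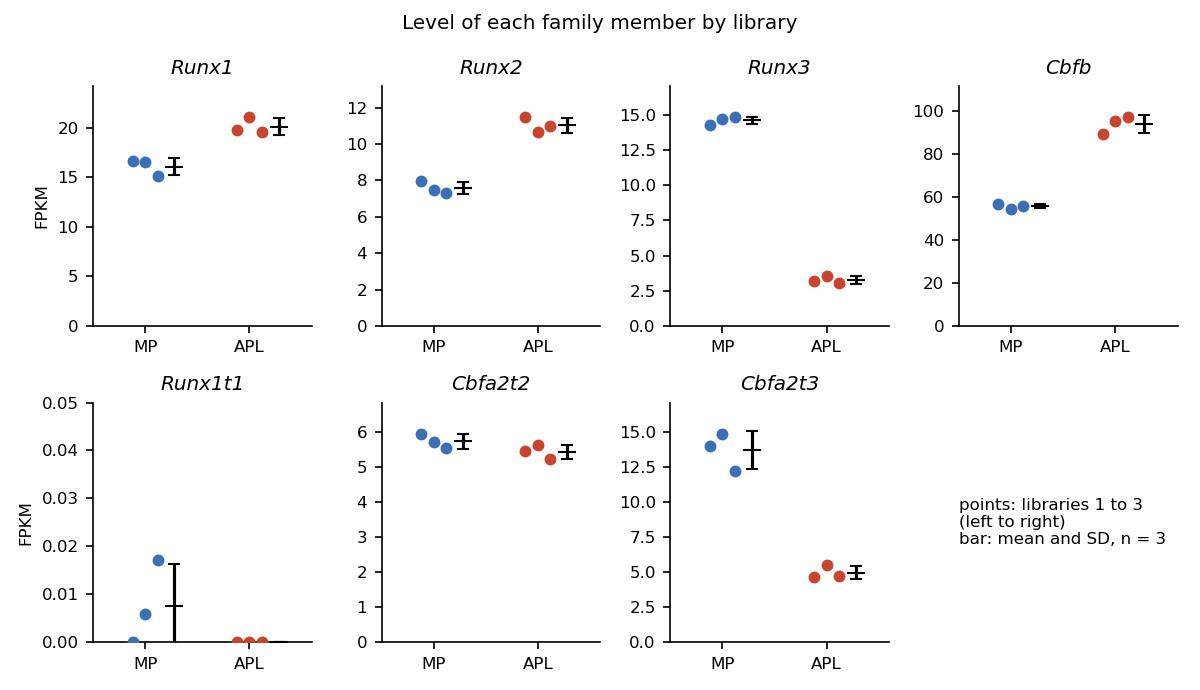
FPKM of the 7 members, 1 panel each with its own axis from 0. Points are libraries 1 to 3 of MP (blue) and APL (red), and bars are the mean and SD over 3 libraries. Runx3 and Cbfa2t3 lie lower in every APL library and Cbfb higher, while the groups of Cbfa2t2 overlap and Runx1t1 is at or next to 0.

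Runx1 (gene ID 12394, chr16:92601466-92826066 on GRCm38), the alpha subunit that adult blood cells rely on most, was measured at 2437, 2396 and 2169 scaled fragments in the MP libraries and at 3251, 3461 and 3309 in the APL libraries, in the order of their numbers. Every APL library was above every MP library. The mean was 2334 ± 144 in MP and 3340 ± 108 in APL (SD, n = 3). The log2 difference was 0.52 (SE 0.07, 95% interval 0.36 to 0.68), with an adjusted P of 2.0e-04 in limma. The difference passed the P threshold but not the fold threshold. In FPKM the level went from 16.1 ± 0.818 to 20.1 ± 0.815, a smaller step of 0.31 on the log2(FPKM + 1) scale.

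Runx2 (gene ID 12393, chr17:44495987-45119284), best known as the regulator of osteoblasts, had 1159, 1074 and 1032 scaled fragments in MP and 1685, 1551 and 1595 in APL. The groups were separate, and the highest MP library stood well under the lowest APL library. The log2 difference was 0.57 (SE 0.08, 95% interval 0.39 to 0.74, adjusted P of 1.6e-04 in limma), with means of 1088 ± 65.0 and 1610 ± 68.3 (SD, n = 3). Like Runx1, it passed the P threshold but not the fold threshold, and its call depended on the scaling and on single libraries: the fold change exceeded 1.5 with median ratio scaling (log2 0.63), without MP replicate 1 (0.61) and without APL replicate 2 (0.59). The locus that the table gives for Runx2 contains Supt3h, a subunit gene of the SAGA complex, and RefSeq ends Runx2 at base 44814797, so fragments could be divided between the pair. Supt3h had means of 503 ± 45.6 and 420 ± 36.6 scaled fragments, a log2 difference of -0.26 (adjusted P of 0.062 in limma).

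Runx3 (gene ID 12399, chr4:135120645-135177990), the alpha subunit of T cells and sensory neurons, had 1473, 1451 and 1512 scaled fragments in MP and 315, 355 and 305 in APL. All MP libraries lay far above all APL libraries, and the spread within each group was small. Runx3 fell by 2.19 on the log2 scale (SE 0.09, 95% interval -2.38 to -1.99, adjusted P of 9.1e-08 in limma). The level went from 14.6 ± 0.268 FPKM to 3.26 ± 0.260 FPKM (SD, n = 3). Leaving out any library kept the log2 difference between -2.25 and -2.14.

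Cbfb (gene ID 12400, chr8:105170674-105217988), the gene of the subunit that all RUNX proteins share, had 4048, 4033 and 4000 scaled fragments in MP and 6553, 7059 and 7241 in APL. The MP libraries were almost equal, and every APL library was far above them. Cbfb rose by a log2 difference of 0.79 (SE 0.07, 95% interval 0.63 to 0.94, adjusted P of 1.0e-05 in limma), from 55.8 ± 0.960 to 94.1 ± 4.11 FPKM (SD, n = 3). Genes of chromosome 8 as a whole had higher values in APL: over the 778 tested the median log2 difference was 0.48, against -0.13 over the genes of the other chromosomes. Relative to the median of its chromosome Cbfb was 0.31 higher on the log2 scale, a 1.24-fold difference, and 32.3% of the chromosome's genes lay above it. These relative values carry no test of their own.

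Of the corepressor genes, Runx1t1 (gene ID 12395, chr4:13743302-13893643), which encodes ETO itself, was measured at 0, 0.952 and 2.71 scaled fragments in the MP libraries. It was at 0 in all 3 APL libraries. Before scaling these were at most 3 fragments, a count that a value of 0 also allows at this depth, so neither presence nor a difference was detectable and no fold is given.

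Cbfa2t2 (gene ID 12396, chr2:154436484-154539356), which encodes the corepressor MTGR1, had 1007, 975 and 940 scaled fragments in MP and 930, 969 and 900 in APL. The groups overlapped. The log2 difference was -0.06 (SE 0.07, 95% interval -0.23 to 0.10), with an adjusted P of 0.47 in limma and a two-sided exact permutation p of 0.2. The interval corresponds to a fold change between 0.854 and 1.07. With median ratio scaling the difference was 0.00034, on the other side of 0.

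Cbfa2t3 (gene ID 12398, chr8:122625136-122699109), which encodes ETO2, had 2864, 2998 and 2531 scaled fragments in MP and 948, 1134 and 961 in APL. The groups were far apart. Cbfa2t3 fell by 1.46 on the log2 scale (SE 0.10, 95% interval -1.68 to -1.24, adjusted P of 1.8e-06 in limma), from 13.7 ± 1.36 to 4.99 ± 0.481 FPKM (SD, n = 3). It lies on chromosome 8 like Cbfb but moved the other way. Relative to the median of the chromosome it was lower by a log2 difference of -1.94, or 3.84-fold, and 8.74% of the chromosome's genes lay under it.

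**Figure D2:**
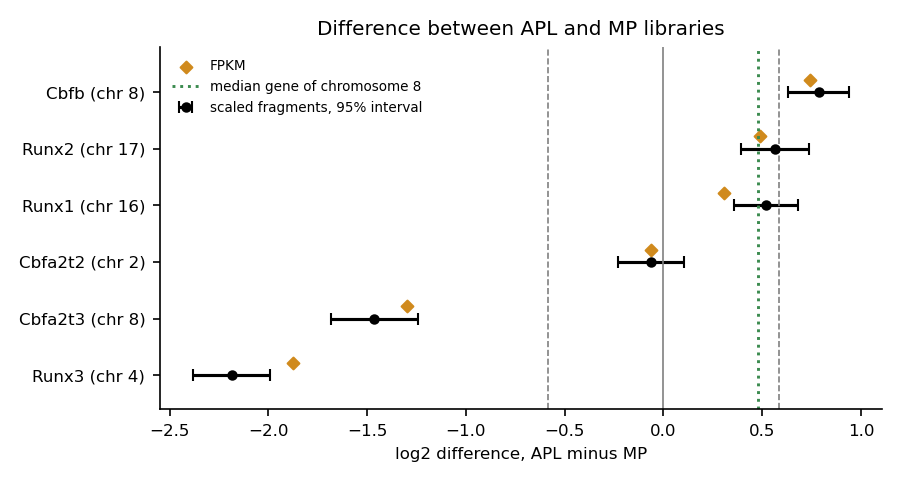
Log2 difference, APL minus MP, of the 6 members tested. Black points are scaled fragments with the 95% interval of the limma fit, orange diamonds the same genes in FPKM, dashed lines a fold change of 1.5 and the dotted line the median gene of chromosome 8 (0.48). Runx3 and Cbfa2t3 lie beyond the lower dashed line and Cbfb beyond the upper, while the interval of Cbfa2t2 spans 0.

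Cbfb had the highest level of the family in both groups, and the order below it differed. In MP it was followed by Runx1 (16.1 FPKM), Runx3 (14.6 FPKM), Cbfa2t3 (13.7 FPKM), Runx2 (7.59 FPKM) and Cbfa2t2 (5.72 FPKM), where only the ranges of Runx3 and Cbfa2t3 overlapped between neighbours. In APL it was followed by Runx1 (20.1 FPKM), Runx2 (11.04 FPKM), Cbfa2t2 (5.43 FPKM), Cbfa2t3 (4.99 FPKM) and Runx3 (3.26 FPKM), where only the ranges of Cbfa2t2 and Cbfa2t3 overlapped. Runx3 thus stood next to Runx1 in MP and last of the detected members in APL. The level of Cbfb was above that of 91.8% of all genes in the table in MP and of 94.99% in APL, while Runx3 went from above 70.0% to above 45.2%.

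The summed level of the alpha subunits differed less than their proportions. Runx1, Runx2 and Runx3 together came to 38.3 ± 0.890 FPKM in MP and 34.5 ± 0.834 FPKM in APL (SD, n = 3), a ratio of 0.899. Runx1 made up 42.7%, 42.7% and 40.7% of that sum in the MP libraries and 57.5%, 59.7% and 58.2% in the APL libraries. Runx3 made up 36.8%, 38.0% and 39.8% in MP and 9.20%, 10.1% and 9.12% in APL. The share of Runx2 was 19.8% ± 0.617 in MP and 32.1% ± 1.65 in APL. The groups did not overlap in any of these values, and the two-sided exact permutation p was 0.1 for each, the smallest possible. The direction of the sum depended on the scale. In scaled fragments, which are not per length, the summed Runx level was higher in every APL library than in every MP library.

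The ratio of Cbfb to the summed Runx level was 1.46 ± 0.0425 in MP and 2.73 ± 0.148 in APL (SD, n = 3, exact permutation p = 0.1). The gene of the shared partner was thus in larger excess over its DNA-binding subunits in every APL library. On the log2 scale the ratio differed by 0.91, and by 0.68 in scaled fragments. Cbfb lies on chromosome 8, whose median log2 difference was 0.61 above that of the other chromosomes, and no Runx gene does. The part of the chromosome in the ratio was not tested. The ratio of Runx3 to Runx1 was 0.910 ± 0.0611 in MP and 0.162 ± 0.00631 in APL (exact permutation p = 0.1). That of Runx2 to Runx1 was 0.471 ± 0.0158 and 0.549 ± 0.0386, with groups that did not overlap in FPKM (log2 difference 0.22, exact permutation p = 0.1). In scaled fragments the same log2 difference was 0.05 (exact permutation p = 0.5), so the data did not separate Runx1 from Runx2 on that scale. Among the corepressors the ratio of Cbfa2t3 to Cbfa2t2 was 2.40 ± 0.203 in MP and 0.918 ± 0.0664 in APL (exact permutation p = 0.1), and every APL library had more Cbfa2t2 than Cbfa2t3. The summed ETO level was 19.5 ± 1.48 and 10.4 ± 0.642 FPKM, of which Cbfa2t3 made up 70.5% ± 1.76 and 47.8% ± 1.799. These 10 sums, shares and ratios use the same genes and are not independent of the single-gene results, and adjusting the FPKM-based p over all 10 leaves each at 0.1.

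**Figure D3:**
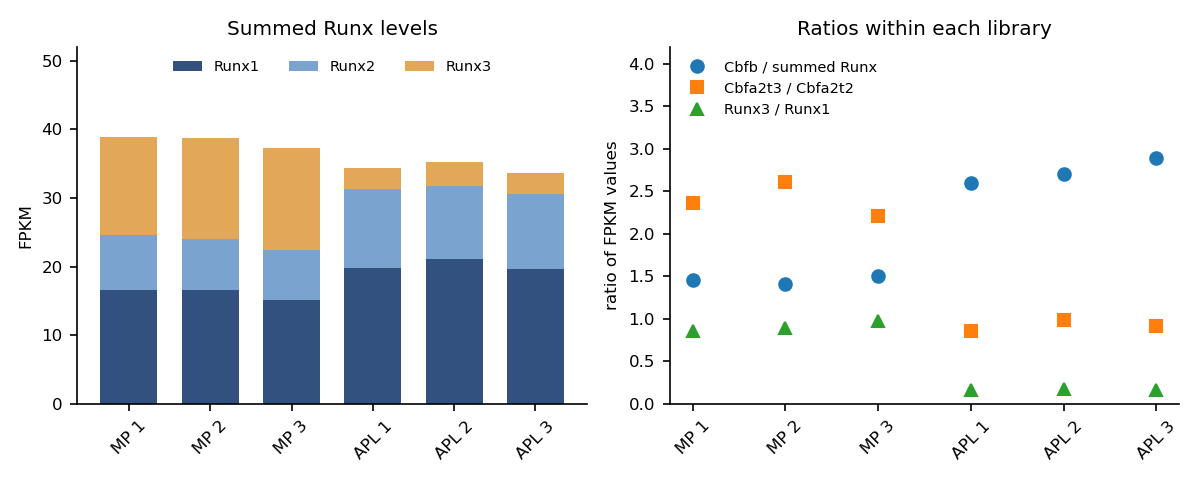
Left, stacked bars of Runx1, Runx2 and Runx3 in FPKM for each library; right, ratios of FPKM values within each library. The bars of APL are nearly as tall as those of MP (34.5 against 38.3 FPKM on average) with a smaller Runx3 segment, and the ratio of Cbfb to summed Runx is higher and the ratio of Cbfa2t3 to Cbfa2t2 lower in each APL library.

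Runx1 stood apart in a quotient of the deposited values. The table gives both scaled fragments and FPKM, and their quotient, levelled between libraries by the median gene, follows the transcript length that the quantification assigned to a gene. For Runx1 it was 147, 146 and 141 in the MP libraries and 166, 164 and 168 in the APL libraries, 14.5% higher in APL with no overlap (exact permutation p = 0.1). Of the 9886 genes with at least 50 scaled fragments in every library, 10.4% did not overlap between groups, the median size of the difference was 0.977%, and 0.303% had a larger one than Runx1. For each of the other 5 members tested the groups overlapped, with differences between -1.65% and 2.29%. GENCODE M1, an annotation made on NCBIM37, gives Runx1 6 coding transcripts of 957 to 7119 bases. Those from the distal start are 5777 and 1762 bases long, those of 7119 and 6927 bases start 128738 bases further into the gene, and those of 5247 and 957 bases start 130416 and 130056 bases further, so each region holds longer and shorter transcripts. The table holds 1 value per gene, so the transcripts cannot be told apart in it.

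**Figure D4:**
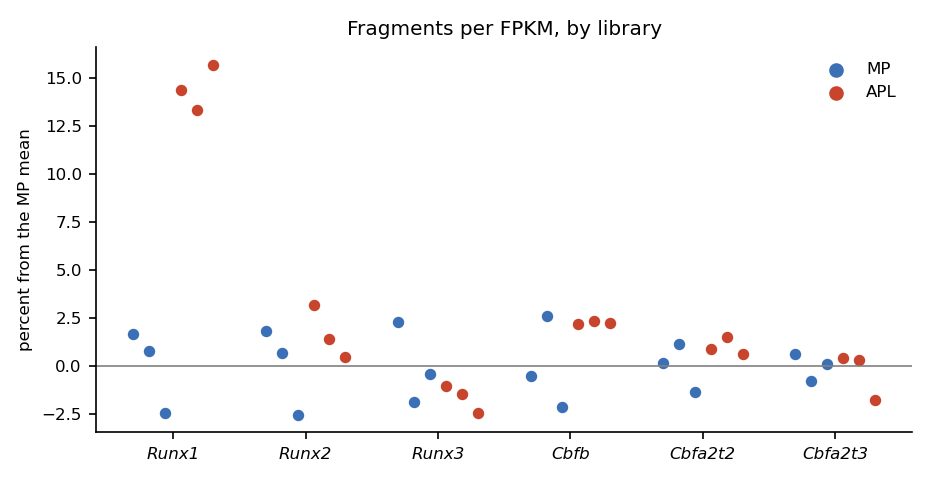
Quotient of scaled fragments and FPKM for each of the 6 members tested, as percent from the MP mean, with points for libraries 1 to 3 of MP (blue) and APL (red). The APL points of Runx1 lie 14.5% above the MP mean on average, and the groups of the other members overlap.

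The genes that work with the family were grouped by role into 8 lists with 73 genes, and counts below use the same rule as for the members. Of 17 cofactors and partners of RUNX proteins, 3 rose, 3 fell and 11 were not called, with a median log2 difference of -0.02. This is a smaller share than the 46.1% of all genes that were called, 21.7% higher and 24.4% lower. Ets1, which binds DNA together with RUNX1, rose from 934 ± 237 to 5293 ± 132 scaled fragments (log2 2.53). Tle1, a Groucho corepressor, rose from 246 ± 8.56 to 934 ± 52.7 (log2 1.92), and Cebpa, the granulocytic factor, also rose (log2 1.34). The cofactor genes that fell were Tle2 (-0.73), Prmt1 (-0.77) and Myb (-0.86), a corepressor, a methyltransferase of RUNX1 and a progenitor transcription factor. The acetyltransferase Crebbp was nearest to 0 (-0.01).

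Of 10 corepressor genes that ETO proteins recruit, 2 rose, 1 fell and 7 were not called (median log2 difference 0.00). Here too the share called was smaller than the 46.1% of all genes. Sin3a rose from 3322 ± 177 to 25184 ± 670 scaled fragments (log2 2.92), and Sin3b, its paralog, rose by a log2 difference of 0.71. Sin3b lies on chromosome 8, where the median log2 difference of the genes tested was 0.48. Hdac2, a class I histone deacetylase, fell from 4640 ± 105 to 2805 ± 67.5 (log2 -0.73). With any 1 MP library left out, 2 of the 10 fell. The NCoR subunit gene Tbl1x was nearest to 0 (-0.10). Apart from Sin3a this machinery thus stayed within a log2 difference of 0.73 either way.

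Of 13 genes of the complex in which ETO2 works 9 fell, 2 rose and 2 were not called, with a median log2 difference of -1.16, where 24.4% of all genes were called lower. Gata1, the master factor of red cells and megakaryocytes, fell from 2862 ± 412 to 18.3 ± 11.3 scaled fragments (log2 -7.40). Gfi1b, a repressor of the same lineages, fell from 2661 ± 509 to 16.6 ± 6.54 (log2 -7.30). Lmo2, the bridging protein, was not called (-0.38), and neither was Lyl1 (0.50). The genes that rose were Irf2bp2 (1.17) and Ssbp4 (0.68), and without MP replicate 2 or without APL replicate 2 only 1 gene of the list rose. Irf2bp2, Ssbp4 and Lyl1 lie on chromosome 8. The median log2 difference of the genes tested on that chromosome was 0.48, and the values of this list were not tested against it. Of the 6 other factors that bind blood enhancers with RUNX1, which share 4 genes with that list, Gata2 (-5.33) and Tal1 (-2.09) fell, Fli1 rose (1.11) and 3 were not called, among them Erg (-0.31), for a median of -0.34. Without MP replicate 3 or without APL replicate 1, 2 of the 6 rose.

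Genes known as RUNX targets were counted by lineage, and the lists were not tested against each other. Of 7 myeloid targets tested 6 rose and 1 fell, with a median log2 difference of 1.47, where 21.7% of all genes were called higher. Il3, the cytokine interleukin 3, was listed at 0 in all MP libraries and had 127 ± 8.40 scaled fragments in APL, at least 44.4-fold higher against a floor of 3 fragments per library. It entered the test only through the APL libraries, and with any 1 of them left out 5 targets rose. Sfpi1 (1.47), which encodes PU.1, Mpo (1.22), Elane (1.78), Gfi1 (1.65) and the receptor gene Csf3r (0.89) rose, and Csf1r, the receptor of monocytes and macrophages, fell (-1.81).

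Of 8 megakaryocytic targets 5 fell, none rose and 3 were not called, for a median log2 difference of -4.02, beside the 24.4% of all genes that were lower. Prkcq, which encodes a protein kinase C, fell from 410 ± 55.4 to 7.94 ± 3.82 scaled fragments (log2 -5.63). Nfe2 was not called (0.53), but passed the fold threshold without MP replicate 3 (0.66). Of 6 lymphoid targets tested 4 fell and 1 rose, where 24.4% of all genes were called lower and 21.7% higher. Cd4, which Runx proteins silence in cytotoxic T cells, fell from 201 ± 24.2 to 2.56 ± 2.60 scaled fragments (log2 -6.18). Rag2 and Ebf1 also fell, with no more than 7 fragments before scaling in any library. Rag1, a recombinase gene, was at 0 in all APL libraries and at least 5.37-fold lower there than in MP by the same floor. Some lymphoid genes are absent from APL and entered the test only through the MP libraries, and with any 1 MP library left out 2 fell. In FPKM 1 fell, and with at least 10 in all 6 libraries 0 fell, with fewer genes tested in both settings. The median over the lymphoid list was -1.98, or -1.17 with genes at the floor set to their bound. Zbtb7b, the factor of helper T cells, rose (1.93), and Itgae lay at 5.64 ± 3.51 and 5.90 ± 2.38. Of 6 skeletal targets of RUNX2 in the table only Spp1 and Col1a1 were high enough to test. Spp1, which encodes osteopontin and is also made by macrophages, rose from 79.9 ± 0.330 to 12309 ± 968 scaled fragments (log2 7.25), and Col1a1 rose from 3.08 ± 1.33 to 70.2 ± 13.7 (log2 4.16).

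**Figure D5:**
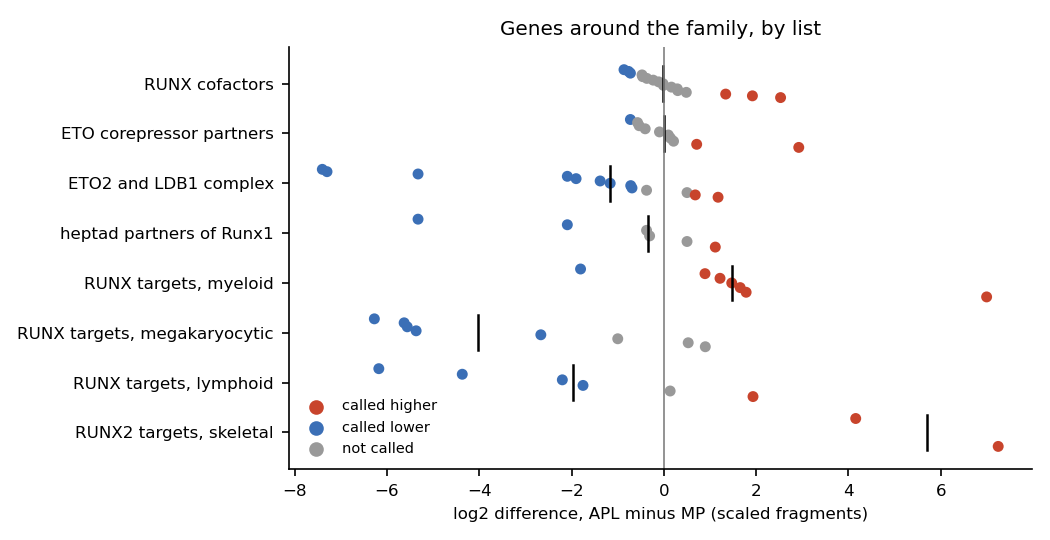
Log2 difference, APL minus MP, in scaled fragments for each tested gene of the 8 lists, with red for called higher, blue for called lower, grey for not called and a black bar at the median of the list. The ETO2 and LDB1 list and the megakaryocytic targets lie to the left (medians -1.16 and -4.02) and the myeloid targets to the right (1.47).

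The groups differed in cell composition markers as well. Beside the marker counts here and in the next paragraph, 21.7% of all genes were called higher and 24.4% lower. The short marker lists were not tested against those shares. The summed level of 6 erythroid marker genes was 263 to 299 FPKM in the MP libraries and 8.41 to 17.1 FPKM in APL, and 5 of 5 tested fell. Of the 4 megakaryocyte markers, Pf4 and Itga2b are also on the list of targets, and their sum was 58.6 to 91.2 FPKM in MP and 1.24 to 2.45 FPKM in APL, with 3 of 4 called lower. Of the 3 B-cell markers measured, 2 fell (12.2 to 14.7 and 0.305 to 0.622 FPKM), and T-cell markers were low in both groups (3.65 to 5.41 and 2.37 to 3.23 FPKM), with the defining marker Cd3e at no more than 3 fragments in every library. Of the 3 T-cell markers tested, Cd4 fell, and Cd3d and Lck were not called. The part of these differences in the lower values of Runx3 and Cbfa2t3 was not tested, and in bulk samples fewer cells of a type and less RNA per cell cannot be told apart.

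Granulocyte markers came to 17447 to 24350 FPKM in MP and 63986 to 78277 FPKM in APL, where 4 of 6 rose, Ltf fell (90.7 to 154 and 43.6 to 55.9 FPKM) and Camp was not called. Mpo and Elane are also on the list of myeloid targets. The summed level of 5 monocyte and macrophage markers was 809 to 968 FPKM in MP and 10625 to 10941 FPKM in APL, where 3 rose and 2 fell. Nearly all of that sum was Ly6c2 (790 to 945 and 10600 to 10915 FPKM), while Csf1r and Cx3cr1 fell. Of 4 plasmacytoid dendritic cell markers 1 rose and 2 fell (49.3 to 62.2 and 84.8 to 107 FPKM). Most of that sum was Bst2 (43.0 to 55.8 and 80.2 to 103 FPKM), while Siglech and Ccr9 were at no more than 3 fragments in every APL library. Of 4 mast cell and basophil markers 1 rose and 3 fell (47.4 to 64.6 and 37.5 to 43.0 FPKM). Cpa3 was lower in APL (27.4 to 40.6 and 0.463 to 1.14 FPKM) and Mcpt8 higher (14.5 to 19.4 and 35.5 to 40.3 FPKM). Osteoblast and stroma markers stayed under 1 FPKM in sum in both groups (0.0663 to 0.215 and 0.522 to 0.755 FPKM). Of 3 tested, 1 rose and 1 fell. Col1a1 rose (0.0171 to 0.0378 and 0.484 to 0.711 FPKM) and made up most of the sum in APL. In every library Sp7, the defining osteoblast factor, was at no more than 3 fragments. Runx2 was thus present where Sp7 was at the floor, and which cells held it was not tested. Of 5 myeloid progenitor markers 3 rose and 2 fell (4033 to 4336 and 8806 to 10371 FPKM in sum, most of it Mpo), and Cd34 went from 83.9 to 112 FPKM in MP to 1.04 to 1.26 FPKM in APL. Kit was present in both groups, as the sorting marker, at 70.6 to 74.5 FPKM in MP and 39.6 to 40.7 FPKM in APL.

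The genes whose pattern over the 6 libraries was most like that of a member were named as a description, by Pearson's r over log2(scaled fragments + 1) among 10310 genes with a mean of at least 100. For Runx1 these were Tnrc18, Ptpru and Ctdspl, for Runx2 Rufy3, Rapgef5 and Dnmbp, for Runx3 Golm1, Fbxo10 and Fads3, for Cbfb Stk17b, Ptgr1 and Lamp2, and for Cbfa2t3 Gigyf1, Pprc1 and Madd. The r of the first named gene was 0.998 for Tnrc18 with Runx1 and 0.999 for Gigyf1 with Cbfa2t3. The 6 points share the contrast of the groups, so a gene scores high where its difference is large beside the spread of its libraries. The difference itself can be small, as in Gigyf1 (log2 -0.46). Cbfa2t2, with no such contrast, had lower values, with r of 0.986 for Foxred2, 0.959 for Slx4 and 0.932 for Sec24b.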

How the data were processed

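The series holds 3 MP and 3 APL libraries, made with the TruSeq RNA kit from total RNA (strand not stated) and grouped by their titles. The authors deposited 1 table that pairs an FPKM with a fragment value. FPKM, as the authors computed it, relates fragments to the length of the transcript and the size of the library. The deposited fragment signal is an estimate of fragments multiplied by a library factor: 86.9% to 89.5% of nonzero values were whole multiples of a library's step, within 0.02 steps or 0.001% of the value. According to the paper's methods, reads passed FastQC and Cutadapt, were aligned by STAR to mm9, counted by HTSeq-count and compared by DESeq2, whereas the submitters' processing notes name CASAVA 1.8, TopHat2 2.0.6 and mm10. The tool that made the table is not given in the sources used here. Its loci follow GRCm38: 16361 gene IDs are in RefSeq and 16295 overlap it. Table starts count from 0, so 1 was added.

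Differences were tested with limma 3.58.1 in R 4.3.3 (lmFit, eBayes with a trend, no covariate) on log2(scaled fragments + 1), for genes with at least 1 in at least 3 of 6 libraries, and P was adjusted by Benjamini-Hochberg across the whole set. The pseudocount of 1 understates the change of low genes. Ratios, shares and the quotient of fragments and FPKM were compared by two-sided exact permutation. On simulated data with 200 of 14690 genes changed, 200 were recovered with 3 false calls. In the deposited libraries 46.1% of the genes tested were called, and recovery at such a share was not tested. Correlations of deviations between same-numbered libraries were -0.13 to 0.26, so the numbers were not used as pairs. Promoters came from RefSeq GRCm38.p6, transcript lengths from GENCODE M1.

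The members and gene lists were chosen with earlier results of these data known. Named genes were all members, the largest 2 and smallest 1 absolute differences of each list, genes that make up a count, and the 3 genes most like each member; 1 gene that the rule names is not reported here. Alternatives covered scale, pseudocount, filter, scaling, the library number as a block, thresholds and each library left out. The alternatives for the Runx3 share, its ratio to Runx1 and the quotient were added after the data were seen. Table symbols Myst3, Mll1, Sfpi1 and Emr1 were matched by gene ID to Kat6a, Kmt2a, Spi1 and Adgre1. Figures were drawn with matplotlib 3.10.9.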

Additional observations from a re-analysis of the deposited data

How the results depend on the processing

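The number of members that fell stayed at 2 under all alternatives, and the same members were called in the fit that added the number as a replicate block, with 3164 genes higher and 3589 lower. The number that rose was 1, and 2 with median ratio scaling, 0 with a fold change over 2, 3 with no fold limit, and 1 to 2 with a library left out, where the added call was Runx2 without MP replicate 1 or without APL replicate 2. Over all genes 3558 were called lower, against 1980 in FPKM, 2041 with at least 10 in all 6 libraries and 5443 with no fold limit. With at least 10 in all 6 libraries 14 list genes were lower, since fewer were tested. Runx2 differed by 0.63 with median ratio scaling and by 0.53 to 0.61 with a library left out. Relative to chromosome 8, Cbfb was 0.31 and Cbfa2t3 -1.94. Cbfa2t2 was 0.00034 with median ratio scaling. In scaled fragments the log2 ratio of Cbfb to summed Runx differed by 0.68 (0.91 in FPKM), that of Runx2 to Runx1 by 0.047 (0.22), that of Runx3 to Runx1 by -2.71 (-2.49), and the Runx3 share by -24.1 percentage points (-28.7). The cause was not tested.

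Crebbp, near 0, was 0.024 in FPKM, 0.054 with median ratio scaling and -0.14 to 0.064 with a library left out, Itgae -0.22 to 0.53, and the quotient of Cbfa2t3 -0.724% to 0.371%. Nfe2 passed the fold threshold with median ratio scaling (0.59) and without MP replicate 3 (0.66). Scaling to the same total moved the median log2 difference of all genes by -0.13 and the share of calls that were lower from 52.9% to 61.4%. That share was 47.9% in FPKM, 47.9% with quantile normalization, 49.0% with median ratio scaling, 47.2% with at least 10 in all 6 libraries and 47.2% without MP replicate 3. Adjusted P of Runx3 and Cbfa2t3 stayed at or under 1.5e-05 in limma over 15 alternatives.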
